A study of Rattus norvegicus with 20 samples.

Results

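The members of the Slc25 family of mitochondrial carriers were studied in the blood cells of inbred rats on 2 diets. They were taken by gene symbol, as the genes whose probe sets carry a single symbol that starts with Slc25a or is Ucp1, Ucp2 or Ucp3. This gave 40 genes, on 44 of the 28826 probe sets of the array, among 14497 genes with a name. Where a gene had 2 probe sets, which was so for Slc25a1, Slc25a23, Slc25a24 and Slc25a51, the one of the higher mean signal was used and the other was set beside it. The family has 56 genes by symbol in the rat RefSeq annotation, and 16 of them, among them the aspartate/glutamate carriers Slc25a12 and Slc25a13 and the ADP/ATP carrier Slc25a31, were not analysed here.

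RNA was hybridised to Rat Gene ST arrays, 1 array for each of 20 male rats aged 15 weeks. There were 4 groups of 5, namely WKY/NCrl rats on the cafeteria diet (CAF), LEW/Crl rats on CAF, WKY/NCrl rats on standard chow (STD) and LEW/Crl rats on STD, each for 7 weeks with a fast of 9 h at the end. CAF is an energy-dense diet of palatable human foods, and both strains are inbred. The labels name the cells as mononuclear cells of the blood, whereas the methods describe monocytes that adhered to plastic.

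Most carriers of this family sit in the inner mitochondrial membrane, which small charged molecules cannot cross by themselves. Each of these exchanges or lets through a small set of solutes, such as ADP for ATP, phosphate, citrate, amino acids, carnitine esters, nucleotides, cofactors, iron or glutathione, and so ties the cytosol to the matrix. The uncoupling proteins belong to the same family. Ucp1 makes brown fat produce heat, while Ucp2 is the form found in immune cells and is known from mouse macrophages as a brake on oxidant production. In maturing red cells other members, the mitoferrin Slc25a37 and the glycine carrier Slc25a38, feed the synthesis of haem.

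The values are log2 signals normalised between arrays, and a difference of 1 on this scale is a doubling of signal. Levels of different genes cannot be set against each other on an array, so that each gene is compared only with itself between groups. A gene is called where the limma model, fitted to all probe sets, gave an adjusted p under 0.05. Median signals per array ranged over 6.83 to 6.90. Arrays of LEW CAF rat 2, WKY STD rat 1 and LEW STD rats 2 and 3 stood apart by a heat shock gene score of 10.96 to 11.56, against 10.08 to 10.40 in the other rats. Some of the marker scores, each the mean log2 signal of a list, also differed between the strains. That of 21 erythroid genes ranged over 8.16 to 8.98 in WKY CAF, 8.95 to 9.82 in LEW CAF, 8.23 to 8.89 in WKY STD and 8.20 to 9.75 in LEW STD rats, and that of 14 neutrophil genes over 8.90 to 9.80, 8.19 to 9.20, 8.91 to 10.22 and 7.89 to 8.48 in the same order. The score of 24 monocyte genes lay at 9.65 to 10.16, 10.06 to 10.35, 10.04 to 10.37 and 10.17 to 10.40. Of the 10 NK cell genes, 7 were higher and 1 was lower in WKY rats on CAF, where 7.58% of all probe sets were called. Of 18 T cell genes 1 was higher and 3 were lower there, of 8 B cell genes 1 was higher and 1 lower, and of 6 platelet genes 0 were called. On STD, where 11.3% of all probe sets were called, 9 of the NK cell genes were higher and 1 was lower. There 1 T cell gene was higher and 8 were lower, 1 B cell gene was lower and 2 platelet genes were lower. The part of these lists in the results was not tested. No marker was at 0, since the lowest value of the table was 3.57. In such a mixed preparation fewer cells of a type and less RNA per cell cannot be told apart.

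On CAF, 7 of the 40 carriers differed between WKY and LEW rats, and on STD 6 did. Lower in WKY rats on both diets were Slc25a51, which brings NAD+ into mitochondria, Slc25a24, a calcium-regulated carrier of ATP-Mg and phosphate, and Ucp2. Higher in WKY rats on both diets was Slc25a44, a carrier of branched-chain amino acids. On CAF alone the ornithine carrier Slc25a2 and the citrate carrier Slc25a1 were called as higher and Slc25a39, which brings glutathione into mitochondria, as lower. On STD alone Slc25a47, a carrier known mainly from liver, was called as higher and Slc25a40, the close relative of Slc25a39, as lower.

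The 7 calls on CAF, 3 higher and 4 lower, made up 17.5% of the members, and of all probe sets 7.58% were called, 4.24% as higher and 3.34% as lower. The 6 calls on STD, 2 higher and 4 lower, made up 15.0%, beside 11.3% of all probe sets, 5.88% as higher and 5.38% as lower. The share depends on the probe sets counted. With dim probe sets filtered out, 14.3% of those left were called on CAF and 20.5% on STD, among them 10 and 7 members. The median log2 difference over the members was 0.0069 on CAF and −0.0057 on STD, as against −0.0092 and −0.0026 over all probe sets. The 4 genes called on both diets, with the same sign, were 57.1% of the CAF calls and 66.7% of the STD calls. The rats on the diets were separate animals, but both tests used the same fit, with a spread shared by all groups. Over the 40 members, the 2 strain differences had the same sign for 26 and were correlated across genes with r = 0.770 (Spearman rho 0.659), beside r = 0.825 over all probe sets. Genes are not independent replicates, and these values are a description. In 37 of 40 members on either diet the 95% interval of the strain difference lay within 1.5-fold.

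**Figure D1:**
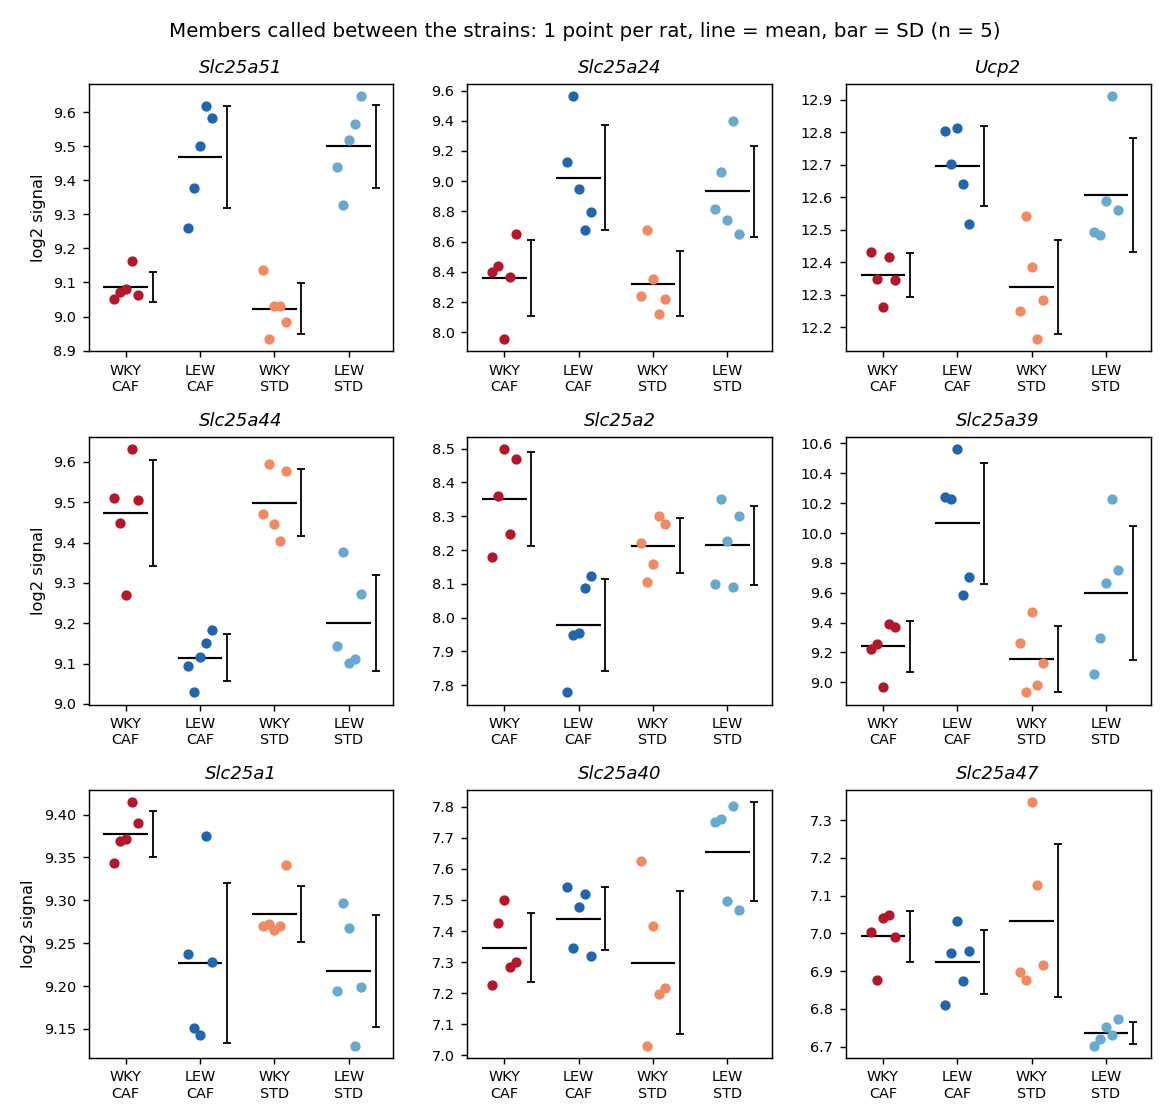
Log2 signal of each rat for the carriers called between the strains, with the mean and SD of each group of 5. WKY rats lay below LEW rats on both diets for Slc25a51, and above them on both diets for Slc25a44.

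Promoter sequences of the 4 genes called on both diets are shown. The calls on CAF and on STD come from the same fit, with a spread shared by all groups. They are therefore not independent tests, and a fit of the compared groups alone called fewer members on STD. Each is the 250 bases before the transcript start of the RefSeq promoter table, on the build GRCr8, which is the genome of another rat strain, so that alleles of WKY and LEW rats are not shown. Of the 40 members, 35 were matched to a promoter. The regions are chr5:64459005-64459254 on the minus strand for Slc25a51, chr2:199449175-199449424 on the plus strand for Slc25a24, chr1:164251123-164251372 on the plus strand for Ucp2 and chr2:176180839-176181088 on the minus strand for Slc25a44. The capitals mark matches on either strand to 6 motifs of promoters, and no 2 matches overlap. RefSeq places the outer end of Slc25a51 and Slc25a44 upstream of the start used in the table, so that 168 and 127 of their 250 bases lie within the annotated gene. The windows of Slc25a24 and Ucp2 lie wholly before their own genes, but that of Slc25a24 lies within the span of its neighbour Slc25a54.
Slc25a51: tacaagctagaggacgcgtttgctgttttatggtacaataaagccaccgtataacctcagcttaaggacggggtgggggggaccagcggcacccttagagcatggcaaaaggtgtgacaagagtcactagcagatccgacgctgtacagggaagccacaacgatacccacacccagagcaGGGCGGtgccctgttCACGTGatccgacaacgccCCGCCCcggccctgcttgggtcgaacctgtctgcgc
Slc25a24: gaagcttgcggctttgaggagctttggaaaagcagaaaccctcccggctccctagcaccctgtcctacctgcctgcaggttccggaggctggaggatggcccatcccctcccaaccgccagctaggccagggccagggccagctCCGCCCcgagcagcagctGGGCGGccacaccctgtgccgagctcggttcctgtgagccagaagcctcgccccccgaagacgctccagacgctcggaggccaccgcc
Ucp2: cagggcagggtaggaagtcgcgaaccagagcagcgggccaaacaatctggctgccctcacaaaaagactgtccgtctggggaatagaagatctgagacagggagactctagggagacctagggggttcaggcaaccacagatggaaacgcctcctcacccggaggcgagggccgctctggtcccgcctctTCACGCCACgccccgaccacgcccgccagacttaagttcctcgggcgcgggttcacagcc
Slc25a44: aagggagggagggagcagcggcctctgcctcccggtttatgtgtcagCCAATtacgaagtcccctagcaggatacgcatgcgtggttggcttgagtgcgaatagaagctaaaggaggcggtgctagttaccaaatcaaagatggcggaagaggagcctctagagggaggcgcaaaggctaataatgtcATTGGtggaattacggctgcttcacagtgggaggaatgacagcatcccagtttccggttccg

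The motifs searched were the NRF1 core GCGCATGC, the sterol response element of SREBPs as TCACNCCAC, the ETS core CCGGAAG, the CCAAT box CCAAT, the GC box GGGCGG and the E box CACGTG. Slc25a51 held a GC box 70 and another 36 bases before the start, with an E box at 55. Slc25a24 held GC boxes at 106 and 88, Slc25a44 CCAAT boxes at 203 and 62, and Ucp2 the sterol response element at 60 bases before the start. That element was in 0.974% of 33469 rat promoters of this length and in 1 of the 35 members, which was Ucp2. The GC box was in 30.5% of all promoters and in 20 of the 35 members, the CCAAT box in 34.0% and 18, the E box in 5.59% and 2, the ETS core in 7.27% and 6, and the NRF1 core in 2.20% and 0. The promoters shown were 58.4%, 68.4%, 62.8% and 54.0% G and C for Slc25a51, Slc25a24, Ucp2 and Slc25a44, and the median was 58.4% over the members and 51.2% over all promoters. Of the genes in question, Slc25a24, Slc25a51 and Ucp2 were lower and Slc25a44 was higher in WKY rats, and none of the motifs was shared by all 4 of these windows.

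Slc25a51 had the smallest adjusted p of the family on both diets. In CAF-fed rats its log2 signal was 9.05, 9.07, 9.08, 9.16 and 9.06 in WKY rats, against 9.26, 9.38, 9.50, 9.62 and 9.58 in LEW rats. In STD-fed rats it was 9.14, 8.93, 9.03, 9.03 and 8.98 in WKY rats, against 9.44, 9.33, 9.52, 9.57 and 9.65 in LEW rats. Every WKY rat was below every LEW rat on the same diet. The log2 difference was −0.38 on CAF (SE 0.07, adjusted p = 0.000747), or 1.30-fold lower, and −0.48 on STD (SE 0.07, adjusted p = 5.48e-05), or 1.39-fold lower. The second probe set gave −0.30 on CAF, which was not called (adjusted p = 0.136), and −0.37 on STD (adjusted p = 0.0417). RefSeq lists a like-named copy of the gene, Slc25a51l1, so that the share of either copy in this signal is uncertain.

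Slc25a44 was the one member higher in WKY rats on both diets. In CAF-fed rats the log2 signals were 9.51, 9.45, 9.27, 9.63 and 9.51 in WKY rats, against 9.09, 9.03, 9.12, 9.15 and 9.18 in LEW rats. In STD-fed rats they were 9.47, 9.60, 9.45, 9.40 and 9.58 in WKY rats, against 9.14, 9.38, 9.10, 9.11 and 9.27 in LEW rats. The groups did not overlap on either diet, although LEW STD rat 2 came close to the lowest WKY rat. The log2 difference was 0.36 on CAF (SE 0.07, adjusted p = 0.00105) and 0.30 on STD (SE 0.07, adjusted p = 0.00417). The calls of Slc25a51 and Slc25a44 were kept with any 1 rat left out and with the erythroid or the monocyte score as a covariate. With the neutrophil score as a covariate, which was chosen after the data were seen and which itself differed between the strains, Slc25a51 was at −0.32 on CAF (adjusted p = 0.0486) and −0.38 on STD (adjusted p = 0.143), and Slc25a44 at 0.25 (adjusted p = 0.107) and 0.12 (adjusted p = 0.820).

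Slc25a24 showed the largest strain difference of the genes called on both diets. In CAF-fed rats its log2 signal was 8.40, 8.44, 7.95, 8.36 and 8.65 in WKY rats, against 9.12, 9.57, 8.95, 8.68 and 8.80 in LEW rats. In STD-fed rats it was 8.24, 8.68, 8.35, 8.12 and 8.22 in WKY rats, against 8.82, 9.06, 8.74, 9.40 and 8.65 in LEW rats. The groups were apart on CAF, by little, and on STD WKY rat 2 lay above the lowest LEW rat. The log2 difference was −0.66 on CAF (SE 0.16, adjusted p = 0.0144), or 1.58-fold lower, and −0.61 on STD (SE 0.16, adjusted p = 0.0183), or 1.53-fold lower. The second probe set gave −0.45 (adjusted p = 0.0384) and −0.43 (adjusted p = 0.0403). Its neighbour Slc25a54 overlaps Slc25a24 in RefSeq, and whether the signal of either gene includes the other is uncertain. Slc25a54 itself lay at the low end of the range, with group means of 4.87 to 4.92. The other carriers of ATP-Mg and phosphate were not called between the strains. Slc25a25 had log2 differences of 0.37 on CAF (adjusted p = 0.0841) and 0.27 on STD (adjusted p = 0.203), opposite in sign to Slc25a24, and Slc25a23 and Slc25a41 lay between −0.0028 and 0.088. The second probe set of Slc25a23 gave 0.16 on CAF (limma, adjusted p = 0.139) and 0.017 on STD (adjusted p = 0.914).

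Among the uncoupling proteins only Ucp2 was called. Its log2 signals on CAF were 12.43, 12.35, 12.26, 12.42 and 12.34 in WKY rats, against 12.81, 12.70, 12.81, 12.64 and 12.52 in LEW rats, without overlap. On STD they were 12.25, 12.54, 12.39, 12.16 and 12.28 in WKY rats, against 12.49, 12.49, 12.59, 12.91 and 12.56 in LEW rats, and WKY rat 2 lay among the LEW rats. The log2 difference was −0.34 on CAF (SE 0.08, adjusted p = 0.0124), or 1.26-fold lower, and −0.28 on STD (SE 0.08, adjusted p = 0.0276), or 1.22-fold lower. Ucp1, for which the group means were 5.39 ± 0.08 in WKY CAF, 5.34 ± 0.10 in LEW CAF, 5.30 ± 0.05 in WKY STD and 5.38 ± 0.08 in LEW STD rats (SD, n = 5), was at the low end of the range, where an array shows changes less well. Ucp3, known from muscle, was at 6.83 ± 0.10, 6.85 ± 0.07, 6.88 ± 0.07 and 6.81 ± 0.09 in the same groups, near the median signals of the arrays. The strain differences of Ucp1 were 0.049 on CAF (adjusted p = 0.727) and −0.079 on STD (adjusted p = 0.408), and those of Ucp3 −0.029 (adjusted p = 0.866) and 0.073 (adjusted p = 0.483).

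The ADP/ATP carriers, which exchange the nucleotides of respiration, were not called. Slc25a5, the general form, was at 12.92 ± 0.02 in WKY CAF, 12.92 ± 0.03 in LEW CAF, 12.96 ± 0.04 in WKY STD and 12.93 ± 0.04 in LEW STD rats (SD, n = 5). Its strain difference was 0.0076 on CAF (95% interval −0.062 to 0.077) and 0.030 on STD (95% interval −0.040 to 0.099). Slc25a4, the form of heart and muscle, had log2 signals on CAF of 8.93, 8.96, 8.84, 8.99 and 8.69 in WKY rats, against 8.75, 8.81, 8.64, 8.69 and 8.71 in LEW rats, and on STD of 8.96, 8.99, 9.05, 8.96 and 9.03 in WKY rats, against 8.94, 8.74, 8.87, 8.93 and 8.77 in LEW rats. On STD every WKY rat was above every LEW rat, and on CAF WKY rat 5 alone lay within the LEW range. The differences of 0.16 on CAF (adjusted p = 0.0887) and 0.15 on STD (adjusted p = 0.107) did not pass. With 1 rat left out, that on CAF ranged over 0.14 to 0.21 (limma, adjusted p 0.0155 to 0.226). The value of 0.21 was that without WKY CAF rat 5. On STD the range was 0.12 to 0.17 (limma, adjusted p 0.0819 to 0.230).

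**Figure D2:**
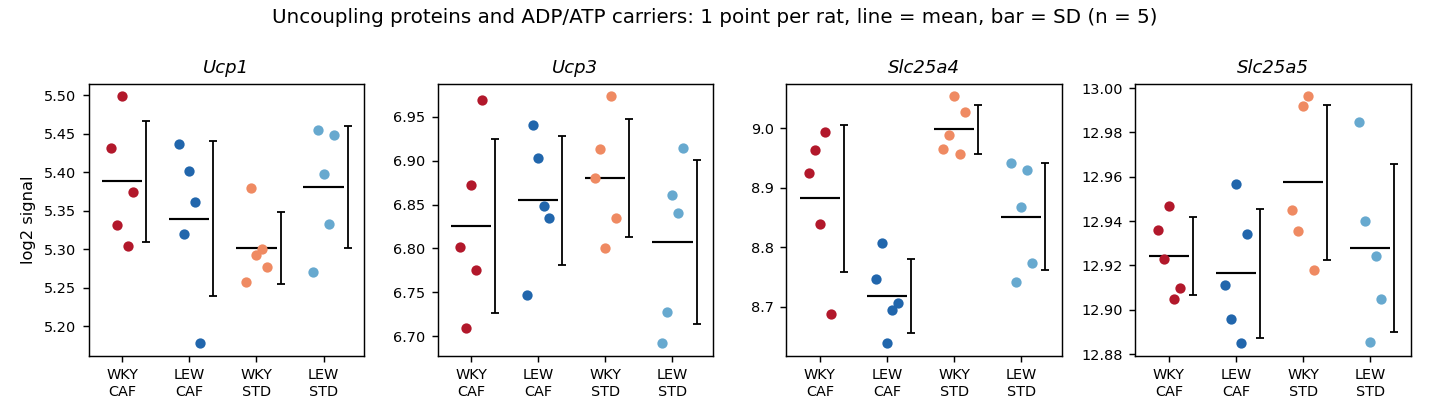
Log2 signal of each rat for Ucp1, Ucp3, Slc25a4 and Slc25a5 in the 4 groups of 5 rats, with a line at the mean and a bar of 1 SD. On the same diet the strains overlap in all panels except that of Slc25a4 on STD, where the WKY rats lie between 8.96 and 9.05 and the LEW rats between 8.74 and 8.94.

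Slc25a39 had the largest strain difference of the family on CAF. Its log2 signals were 9.22, 9.26, 8.97, 9.39 and 9.37 in WKY rats, against 10.24, 10.23, 10.56, 9.58 and 9.71 in LEW rats, and the groups did not overlap. The log2 difference was −0.82 (SE 0.19, adjusted p = 0.00924), or 1.77-fold lower. On STD the signals were 9.26, 8.93, 9.47, 8.98 and 9.13 in WKY rats, against 9.06, 9.30, 9.67, 10.23 and 9.75 in LEW rats, and the difference of −0.44 was not called (adjusted p = 0.164). The SDs were 0.17 on CAF and 0.22 on STD in WKY rats, against 0.41 on CAF and 0.45 on STD in LEW rats, and LEW STD rat 4 at 10.23 stood above the other STD-fed rats.

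The signal of Slc25a39 moved with the erythroid marker score, the mean of 21 red cell genes that include no member of the family. Slc25a39 is known to be abundant in red cell precursors. Within WKY rats its signal was correlated with the score at r = 0.855 (n = 10, permutation p = 0.00291, adjusted p = 0.0524, Spearman rho 0.770, permutation p = 0.0132 and adjusted p = 0.178). Within LEW rats it was so at r = 0.983 (n = 10, permutation p = 3e-05, adjusted p = 0.00162, rho 0.927, permutation p = 0.00033 and adjusted p = 0.0178). Without the 2 rats farthest from the median score, r was 0.796 in WKY and 0.980 in LEW rats. For Ucp2, r was 0.582 in WKY rats (n = 10, permutation p = 0.0769, adjusted p = 0.265, rho 0.636, adjusted p = 0.235), and without the 2 farthest rats 0.513. In LEW rats it was 0.890 (n = 10, permutation p = 0.00057, adjusted p = 0.0154, rho 0.891, adjusted p = 0.0313), and 0.911 without those 2. The difference between the strains in these correlations was not tested. The relations in LEW rats of these 2 carriers with the erythroid score were the ones that passed among 54, those of 9 carriers with the erythroid, monocyte and neutrophil scores in each strain, in 2-sided tests adjusted over the 54.

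**Figure D3:**
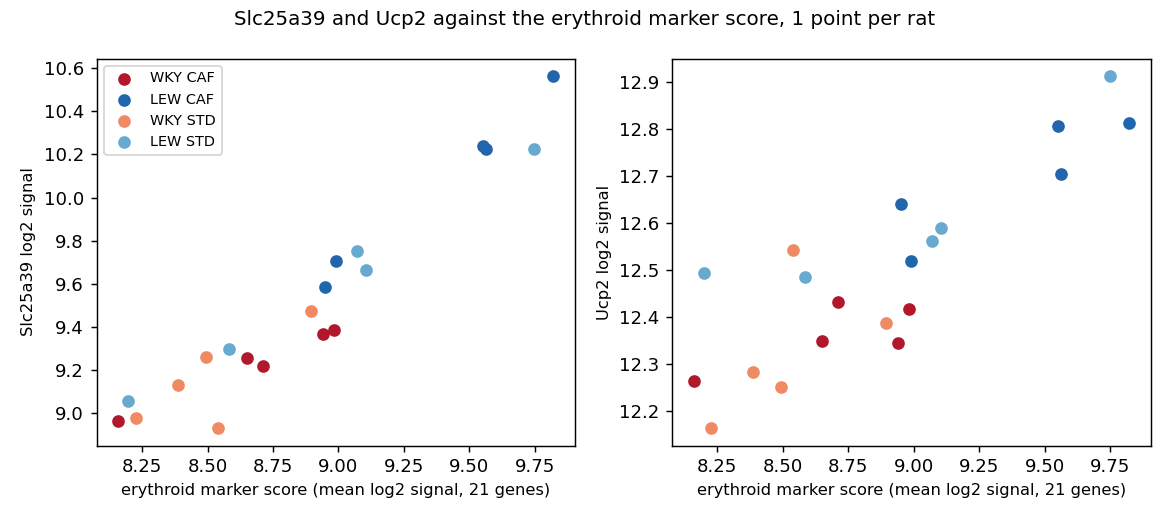
Log2 signal of Slc25a39 (left) and Ucp2 (right) against the erythroid marker score, 1 point per rat, coloured by group. The LEW CAF rats reach the highest scores, up to 9.82, together with LEW STD rat 4 at 9.75.

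On CAF, where 7.58% of all probe sets were called, 5 of the 21 erythroid genes were called as lower in WKY rats and 1 as higher. On STD, where 11.3% of all probe sets were called, 4 were lower and 1 was higher. The median log2 differences of the 21 genes were −0.56 on CAF and −0.37 on STD. Called on both diets were Rhd, Xk and Gypc, which are lower in WKY, and Rhag, which is higher, all known from the red cell membrane. With the score as a covariate, the CAF difference of Slc25a39 was −0.29 (adjusted p = 0.0409), that of Ucp2 −0.16 (adjusted p = 0.216), that of Slc25a24 −0.39 (adjusted p = 0.216) and that of Slc25a2 0.28 (adjusted p = 0.0536). With the monocyte score as a covariate, to which 24 genes contribute, 6 of them called as lower and 1 as higher in WKY rats on CAF, the values of the same 4 carriers were −0.60 (adjusted p = 0.119), −0.22 (adjusted p = 0.177), −0.31 (adjusted p = 0.266) and 0.27 (adjusted p = 0.0554). On STD with the erythroid score, Slc25a24 was at −0.44 (adjusted p = 0.0687) and Ucp2 at −0.17 (adjusted p = 0.0820).

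Of the other carriers that serve haem and iron, none was called between the strains. Slc25a37, the mitoferrin of red cell precursors, was at 10.15 ± 0.17 in WKY CAF, 10.18 ± 0.34 in LEW CAF, 10.28 ± 0.09 in WKY STD and 10.01 ± 0.16 in LEW STD rats (SD, n = 5), with strain differences of −0.025 (adjusted p = 0.957) and 0.26 (adjusted p = 0.209). Slc25a38 differed by 0.042 on CAF (adjusted p = 0.771) and −0.098 on STD (adjusted p = 0.279). Slc25a28, the mitoferrin of other cells, was at 9.95, 10.08, 9.93, 9.92 and 9.91 in CAF-fed WKY rats, against 9.83, 9.62, 9.86, 9.65 and 9.63 in CAF-fed LEW rats. These did not overlap, but the difference of 0.24 did not pass (adjusted p = 0.0545), and on STD it was 0.078 (adjusted p = 0.600).

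Slc25a40, like Slc25a39 a glutathione carrier, was called on the other diet. On STD its log2 signals were 7.63, 7.03, 7.42, 7.20 and 7.22 in WKY rats, against 7.75, 7.76, 7.50, 7.80 and 7.47 in LEW rats, and WKY rat 1 lay among the LEW rats. The log2 difference was −0.36 (SE 0.10, adjusted p = 0.0174), and without WKY STD rat 2 it was −0.29 (adjusted p = 0.0565). On CAF it was −0.093 (adjusted p = 0.702). Its correlation with the neutrophil score was r = −0.819 in WKY rats (n = 10, permutation p = 0.00393, adjusted p = 0.0531, rho −0.697, adjusted p = 0.212) and −0.769 in LEW rats (n = 10, permutation p = 0.00818, adjusted p = 0.0883, rho −0.721, adjusted p = 0.212), which did not pass over the 54 relations, and without the 2 farthest rats r was −0.582 in WKY and −0.576 in LEW rats. Of the 14 neutrophil genes, 5 were higher in WKY rats on CAF and 10 on STD, and none was lower, beside calls of 7.58% and 11.3% over all probe sets. With that score as a covariate, Slc25a40 had the opposite sign, 0.083 on STD (adjusted p = 0.909), and the members called numbered 2 on CAF and 0 on STD, where the calls over all probe sets fell to 3.44% and 1.55%.

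Slc25a47 was called on STD, where its log2 signals were 6.90, 6.88, 7.35, 7.13 and 6.92 in WKY rats, against 6.70, 6.72, 6.75, 6.73 and 6.77 in LEW rats. Every WKY rat was above every LEW rat, and the difference was 0.30 (SE 0.07, adjusted p = 0.00907). The LEW values lay below the median signals of the arrays, which were 6.83 to 6.90. On CAF it was 0.069 (adjusted p = 0.712). Slc25a2 was the counterpart on CAF, with 8.18, 8.36, 8.50, 8.25 and 8.47 in WKY rats, against 7.78, 7.95, 7.95, 8.09 and 8.12 in LEW rats, again without overlap. Its difference was 0.37 (SE 0.07, adjusted p = 0.00259), or 1.29-fold higher. On STD, Slc25a2 was at 8.21 ± 0.08 in WKY and 8.21 ± 0.12 in LEW rats (SD, n = 5), and the difference was −0.0009 (adjusted p = 0.996). Slc25a15, the main ornithine carrier of the urea cycle, differed by 0.18 on CAF (adjusted p = 0.161) and −0.016 on STD (adjusted p = 0.935).

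The citrate carrier Slc25a1, which exports citrate for fatty acid and sterol synthesis, passed narrowly on CAF. Its log2 signals were 9.34, 9.37, 9.37, 9.41 and 9.39 in WKY rats, against 9.24, 9.15, 9.14, 9.37 and 9.23 in LEW rats, and LEW rat 4 lay among the WKY rats. The difference was 0.15 (SE 0.04, adjusted p = 0.0432), and it was no longer called when any 1 of the CAF-fed rats other than LEW rat 4 was left out (adjusted p up to 0.127). The second probe set gave 0.0019 on CAF (adjusted p = 0.994) and −0.10 on STD (adjusted p = 0.360), where the first gave 0.066 (adjusted p = 0.414). Among the other carriers of citrate cycle acids, Slc25a10 for dicarboxylates differed by −0.058 on CAF and −0.17 on STD (adjusted p = 0.748 and 0.115), and Slc25a11 for oxoglutarate by −0.019 and 0.074 (adjusted p = 0.916 and 0.460).

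**Figure D4:**
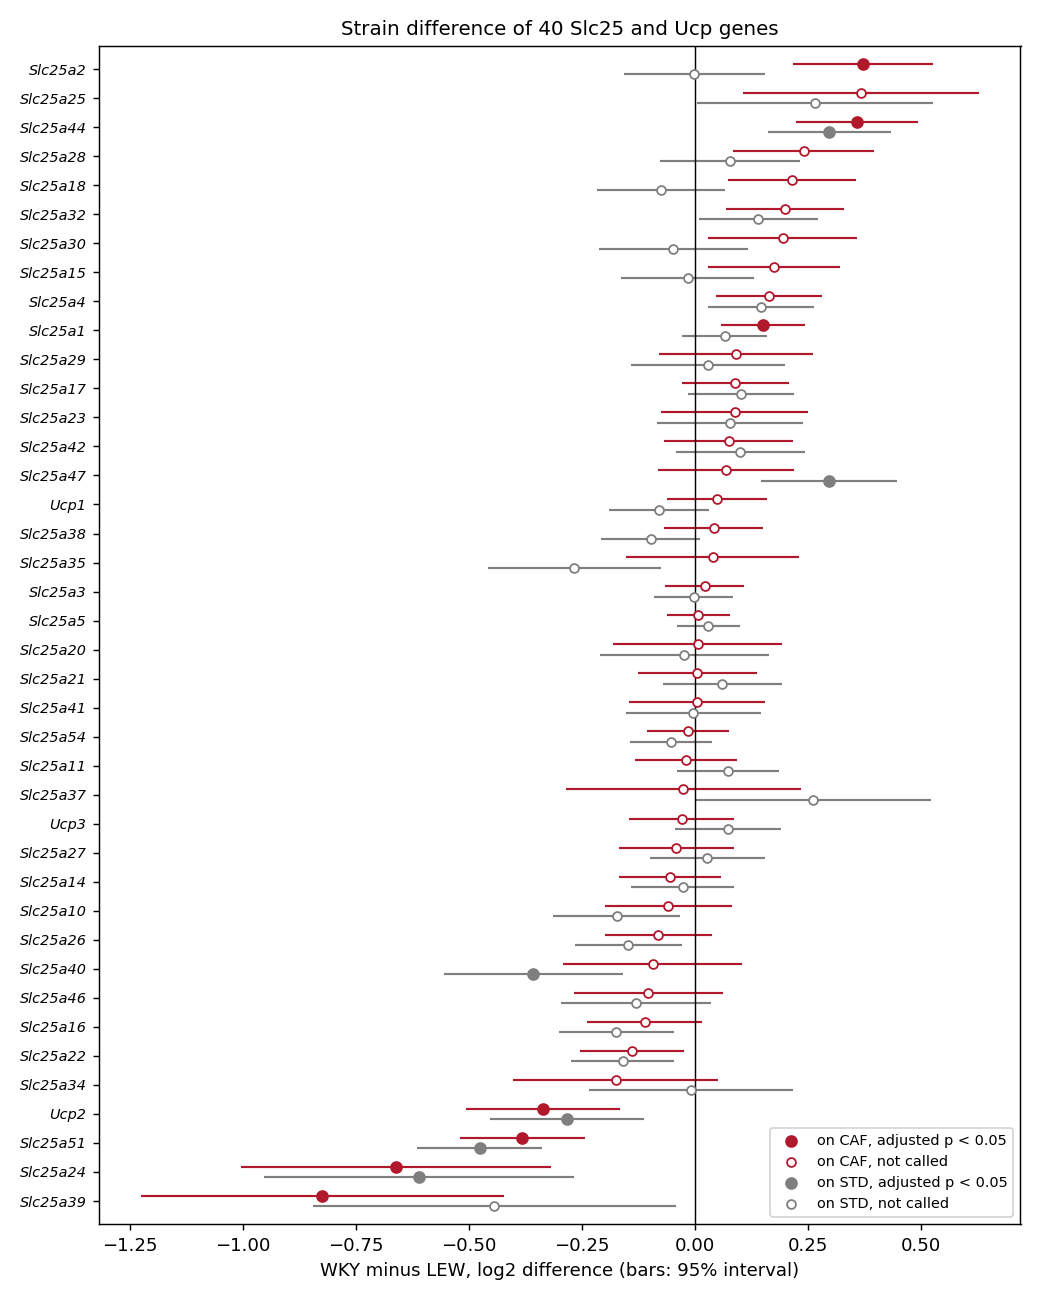
WKY minus LEW log2 difference of each of the 40 members on CAF and on STD, with 95% intervals and calls marked. Called members lie between −0.82 and 0.37 on CAF and between −0.61 and 0.30 on STD.

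For the remaining members no strain difference was called on either diet. The phosphate carrier Slc25a3, which supplies ATP synthase, had group means of 12.01 to 12.03 and differed by 0.022 on CAF and −0.0020 on STD. Slc25a20, which brings fatty acids into mitochondria as acylcarnitines, differed by 0.0061 and −0.023. The glutamate carriers Slc25a22 and Slc25a18 were at −0.14 (adjusted p = 0.150) and 0.22 (adjusted p = 0.0617) on CAF and at −0.16 (adjusted p = 0.0674) and −0.075 (adjusted p = 0.575) on STD, and in CAF-fed rats every WKY rat was below every LEW rat for Slc25a22. Carriers of cofactors also gave small values, with 0.20 on CAF (adjusted p = 0.0590) and 0.14 on STD for Slc25a32, a folate carrier, −0.081 and −0.15 for Slc25a26, which carries S-adenosylmethionine, and 0.075 and 0.10 for the coenzyme A carrier Slc25a42. Slc25a14, Slc25a27 and Slc25a30, relatives of the uncoupling proteins, lay between −0.055 and 0.19. Slc25a16, Slc25a17, Slc25a21, Slc25a29, Slc25a34, Slc25a35 and Slc25a46 lay between −0.17 and 0.091 on CAF and between −0.27 and 0.10 on STD. Before adjustment, 15 of the 40 members on CAF and 16 on STD had an unadjusted p under 0.05, beside 18.5% and 23.3% of all probe sets.

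Without overlap between the strains were 9 members on CAF, 4 higher and 5 lower in WKY rats, and 4 on STD, 3 higher and 1 lower. Of all probe sets, 7.80% were without overlap on CAF, 4.16% higher and 3.64% lower, and 8.46% on STD, 4.37% higher and 4.09% lower. In a model with 1 strain effect over both diets, 14 members were called, 7 higher and 7 lower, beside 17.2% of all probe sets. Added there were Slc25a4 at 0.16 (adjusted p = 0.00693), Slc25a25 at 0.32 (adjusted p = 0.0132), Slc25a32 at 0.17 (adjusted p = 0.00850), Slc25a28 at 0.16 (adjusted p = 0.0484), Slc25a22 at −0.15 (adjusted p = 0.00764) and Slc25a16 at −0.14 (adjusted p = 0.0238), while Slc25a2 was not called. Without the 4 arrays of high heat shock score, 8 members were called on CAF and 7 on STD, beside 8.11% and 10.5% of all probe sets. Slc25a1 and Slc25a24 on CAF (adjusted p = 0.106 and 0.0542) and Ucp2 on STD (adjusted p = 0.0705) were then not among them.

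Other mitochondrial genes were set beside the carriers. Of all probe sets, 7.58% were called between the strains on CAF and 11.3% on STD. Of 14 genes of the carnitine shuttle and of pyruvate entry, 1 was called on CAF, which was the pyruvate dehydrogenase kinase Pdk3 at 0.98 (SE 0.11, adjusted p = 4.52e-06), and 3 on STD, with Pdk3 at 1.02 (adjusted p = 2.49e-06), the pyruvate carrier subunit Mpc1 at −0.21 (adjusted p = 0.0255) and Pdha1 of pyruvate dehydrogenase at −0.20 (adjusted p = 0.0463). Of 13 genes of the import machinery for carriers, Tomm22, a receptor of the outer membrane, was lower on both diets at −0.24 (adjusted p = 0.00121) and −0.19 (adjusted p = 0.00624), and Timm22, the inner membrane insertase for carriers, was lower on STD at −0.25 (adjusted p = 0.0405). Of 12 sideroflexins and other inner membrane transporters, Sfxn5 was higher on both diets at 0.69 (adjusted p = 0.00292) and 1.03 (adjusted p = 3.99e-05), Sfxn2 lower on both at −0.32 (adjusted p = 0.00731) and −0.24 (adjusted p = 0.0363), and Sfxn3 lower on CAF at −0.24 (adjusted p = 0.0197). Among 10 shuttle enzymes Idh2, which makes NADPH in mitochondria, was higher on CAF at 0.39 (adjusted p = 0.000501) and Glud1, glutamate dehydrogenase, lower on STD at −0.30 (adjusted p = 0.000883). None of 8 pores of the outer membrane and carrier relatives was called on either diet, and of 12 regulators of mitochondrial biogenesis Pparg alone was called, as higher on STD at 0.64 (adjusted p = 0.0327).

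Between the diets no member was called. In WKY rats, in LEW rats and in the diet by strain interaction, which is the diet difference in WKY minus that in LEW rats, 0 of 40 members and 0% of all probe sets passed in limma. At an unadjusted p under 0.05 there were 4 members in WKY rats, 7 in LEW rats and 5 in the interaction, while 8.81%, 5.46% and 5.95% of all probe sets reached it. The 95% interval of the diet difference lay within 1.5-fold for all 40 members in WKY and for 38 in LEW rats. The values given below are those of the smallest unadjusted p, and none of them passed.

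Slc25a25, known as a stress-responsive carrier of ATP-Mg and phosphate, had an unadjusted p under 0.05 in both strains, on the lower side on CAF. In WKY rats the log2 signals were 9.06, 9.10, 8.86, 8.83 and 9.03 on CAF, against 9.33, 9.35, 9.09, 9.24 and 9.20 on STD. In LEW rats they were 8.76, 8.67, 8.56, 8.36 and 8.70 on CAF, against 8.78, 9.55, 9.11, 8.73 and 8.70 on STD. In both strains a CAF value reached into the STD range. The differences were −0.27 in WKY (unadjusted p = 0.0461) and −0.37 in LEW rats (unadjusted p = 0.00817), and with 1 diet effect for both strains −0.32 (unadjusted p = 0.00154, adjusted p = 0.385). The LEW STD rats with the highest values, rats 2 and 3, were among the 4 of high heat shock score. Without those 4 arrays the difference in LEW rats was −0.14. WKY STD rat 1, at 9.33, was also among the 4, and with any 1 rat left out the WKY difference was −0.30 to −0.23. The part of the heat shock score in these differences was not tested.

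Slc25a2 had the smallest p of the interaction, at 0.37 (SE 0.11, unadjusted p = 0.00206, adjusted p = 0.707). In WKY rats it was at 8.35 ± 0.14 on CAF and 8.21 ± 0.08 on STD, and in LEW rats at 7.98 ± 0.14 on CAF and 8.21 ± 0.12 on STD (SD, n = 5), with a difference of −0.24 in LEW rats (unadjusted p = 0.00497). Slc25a18, the second glutamate carrier, was at 7.59 ± 0.08 on CAF and 7.39 ± 0.10 on STD in WKY rats, with a difference of 0.20 (unadjusted p = 0.00921), and its interaction was 0.29 (unadjusted p = 0.00706). Slc25a47 in LEW rats was at 6.92 ± 0.08 on CAF and 6.74 ± 0.03 on STD, with every CAF rat above every STD rat, a difference of 0.19 (unadjusted p = 0.0171) and an interaction of −0.23. Slc25a39 in LEW rats had a difference of 0.46 (unadjusted p = 0.0256), where the mean erythroid score was 9.38 on CAF and 8.94 on STD. Slc25a4 had differences of −0.12 in WKY (unadjusted p = 0.0525) and −0.13 in LEW rats (unadjusted p = 0.0286), and Slc25a23 of 0.17 and 0.16 (unadjusted p = 0.0371 and 0.0486). The second probe set of Slc25a23 gave 0.0755 in WKY and, with the opposite sign, −0.064 in LEW rats (limma, unadjusted p = 0.225 and 0.300). Slc25a1 in WKY rats was higher on CAF by 0.094 (unadjusted p = 0.0497), while its second probe set gave −0.062. The diets barely missed overlapping on the first probe set, with a lowest CAF value of 9.3433 and a highest STD value of 9.3417. The interaction was 0.31 for Slc25a35 and 0.24 for Slc25a30. Of the genes called between the strains on both diets, Ucp2 differed between the diets by 0.036 in WKY and 0.088 in LEW rats, Slc25a51 by 0.064 and −0.032, Slc25a24 by 0.038 and 0.089 and Slc25a44 by −0.025 and −0.086, with unadjusted p from 0.200 to 0.819. The second probe sets gave 0.015 in WKY and −0.056 in LEW rats for Slc25a51, and −0.077 and −0.051 for Slc25a24.

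**Figure D5:**
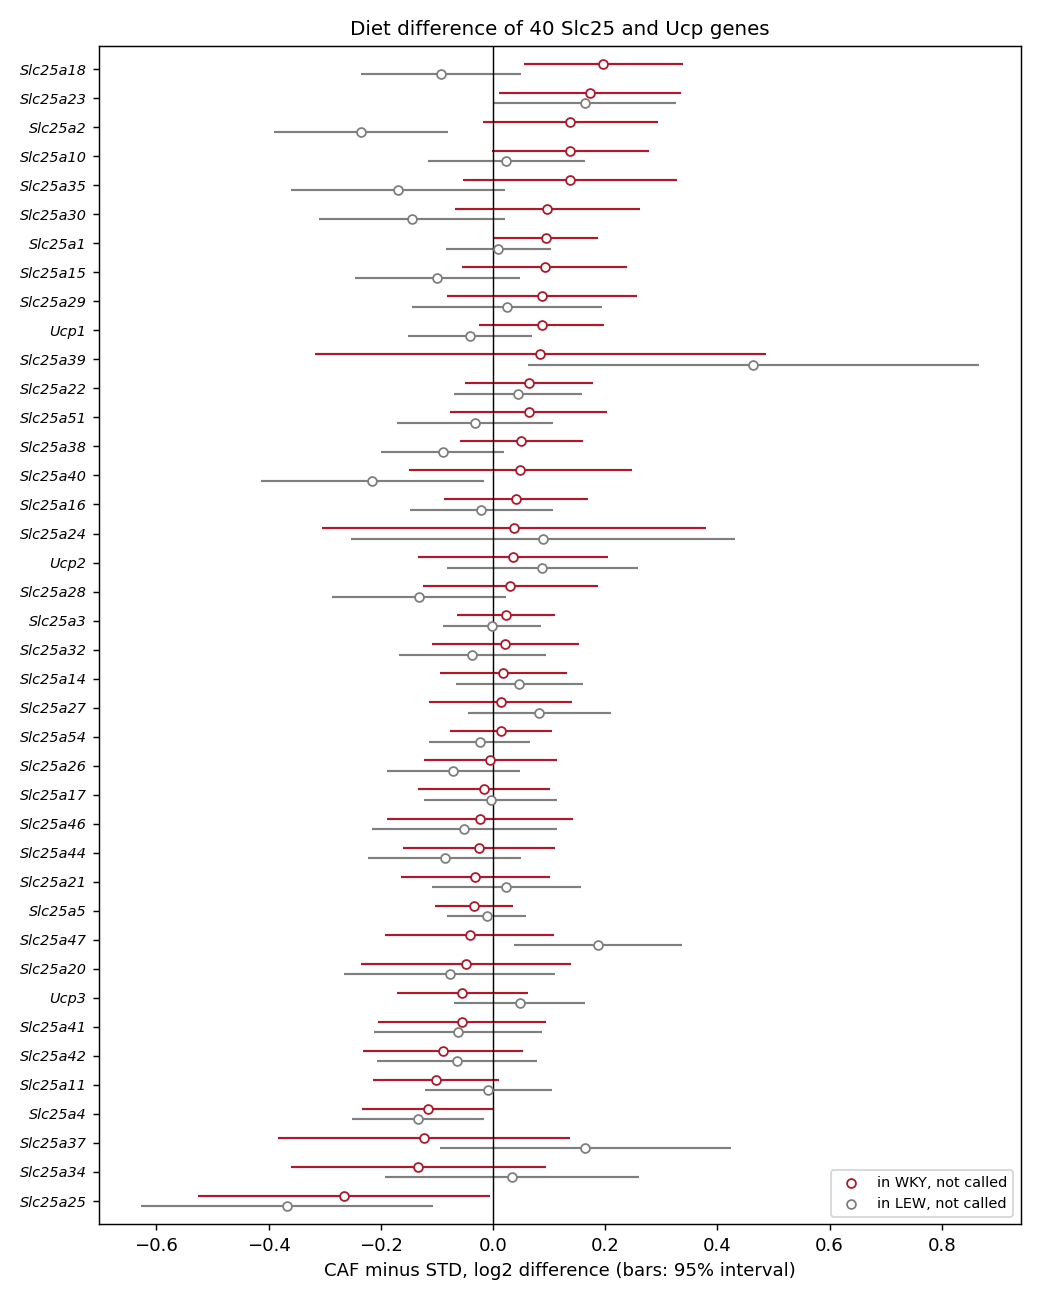
CAF minus STD log2 difference of each of the 40 members in WKY and in LEW rats, with 95% intervals. No member was called, and the largest differences were those of Slc25a39 (0.46) and Slc25a25 (−0.37) in LEW rats.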

How the data were processed

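RNA of 20 rats was measured on 1 array each. The authors deposited log2 signals per probe set, normalised between arrays, with RMA according to the methods and MAS5 according to the submitters' notes. The values were used as deposited, with no filter and no further normalisation. Probe sets were named by the platform annotation, in which 15209 of 28826 carry 1 symbol, and all 40 members were matched to RefSeq. Differences were fitted with limma 3.58.1 (R 4.3.3) to the 20 arrays together, each group having its own mean and 16 residual degrees of freedom being left, and p was adjusted by Benjamini-Hochberg over the whole table. The procedure was tested on simulated data whose noise was independent between probe sets, so that shifts shared by many genes were not covered. Correlations with marker scores used 100000 permutations within a strain. The members named were those called between the strains, the 5 of the smallest p where none was called, the uncoupling proteins and the ADP/ATP carriers, and from each other list up to 3 genes of the smallest adjusted p on CAF. Other members and list genes named were chosen after their values were seen. The members and lists were chosen with earlier results of these data known. Each rat is a separate animal, and the number of arrays limits the precision. Arrays of equal replicate number were not treated as pairs. Of 30 pairs of equal number, 9 correlated above 0.1, with r from −0.18 to 0.43 and a median of 0.057. Pairs of unequal number were not set beside them, so that these values cannot decide whether the numbers link arrays. The alternatives tried were median centring, quantile normalisation, a filter on dim probe sets, a trended and robust fit, array weights, a fit of the compared groups only, a replicate block, marker scores as covariates, the second probe set, an additive model, and leaving out rats.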

Additional observations from a re-analysis of the deposited data

Results flagged for a closer look

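In 72 groups of 5 rats, those of 18 carriers, 6 had a rat whose distance to the nearest other exceeded 0.71 of the range of the group, where chance gives about 1 in 20. The rats were WKY STD rat 5 for Slc25a1 at 9.34 (others 9.27 to 9.27), LEW CAF rat 2 for Slc25a23 at 7.90 (others 8.22 to 8.28), WKY STD rat 3 for Slc25a30 at 10.14 (others 9.88 to 9.95), WKY STD rat 1 for Slc25a35 at 7.29 (others 6.79 to 6.83), WKY CAF rat 4 for Slc25a51 at 9.16 (others 9.05 to 9.08) and LEW STD rat 4 for Ucp2 at 12.91 (others 12.49 to 12.59). LEW STD rat 4 had the highest erythroid score of its group, 9.75, and without it the STD strain difference of Ucp2 was −0.21 (adjusted p = 0.0723 from limma). LEW CAF rat 2 and WKY STD rat 1 had high heat shock scores of 11.26 and 10.97. The part of these scores in the outlying values was not tested.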

How the results depend on the processing

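Against 7 members called on CAF and 6 on STD, where 7.58% and 11.3% of all probe sets were called, array weights gave 13 on CAF (11.1% of all probe sets), a fit of the compared groups alone 3 on STD (8.28%), the erythroid score as a covariate 3 on CAF (5.77%), the monocyte score 4 on CAF (8.15%), the additive model 14 for either diet (17.2%), and the neutrophil score, chosen after seeing the data, 2 on CAF (3.44%) and 0 on STD (1.55%). The other settings stayed within 1.5 times, and leaving out 1 rat gave 6 to 9 on CAF and 5 to 8 on STD. The replicate block gave 9 on CAF and 7 on STD, and whether the numbers link arrays was not settled. For the diets and the interaction the count was 0 in every setting. The difference of Slc25a40 on STD, called at −0.36, turned to 0.083 with the neutrophil score as a covariate. The other signs that turned were of differences not called. Slc25a2 on STD was 0.014 after quantile normalisation, 0.0030 with array weights, 0.012 with the heat shock score, 0.19 in the additive model, 0.047 without the 4 arrays of high heat shock score and −0.032 to 0.034 with 1 rat left out. Slc25a5 on CAF was −0.0015 with array weights, −0.0064 with the erythroid score and −0.0004 to 0.018 with 1 rat left out. Ucp3 on CAF was 0.0079 with the erythroid score and 0.022 in the additive model, where Ucp1 was −0.015. The second probe set turned Slc25a1 to −0.10 on STD and to −0.062 for the diet in WKY rats, and the neutrophil score turned Slc25a40 to 0.18 on CAF. Ucp2 on STD was not called without LEW STD rat 4 or WKY STD rat 1, 4 or 5 (adjusted p 0.0572 to 0.0739), nor Slc25a24 without LEW STD rat 4 (adjusted p = 0.0549). The cause of these changes was not tested.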
